A study of Homo sapiens with 6 samples.

Results

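The 33 genes described here encode the enzymes that build cholesterol, the enzymes that make, desaturate, elongate and activate fatty acids, and the regulators that set their transcription. They were taken by symbol from the table of read counts, and all 33 were found among its 22354 loci. RNA was sequenced from HTori-3.1, an established cell line derived from normal human thyroid, in 3 libraries labelled control with a wild-type genotype and 3 libraries labelled BMAL1 knockout. The knockout cells had received Cas9 and an sgRNA against BMAL1 by lentivirus, with puromycin selection and picking of single clones, and neither the number of clones nor what the control cells had received is stated for these libraries. Both groups had been exposed to 2 μM etoposide, an inhibitor of topoisomerase that breaks DNA, for 12 h by the treatment field of the labels and for 24 h by the protocol. The control libraries held 26893063, 27029060 and 28513703 counts in total, and the libraries labelled BMAL1 knockout 43148059, 29860233 and 43563391. Nothing in the labels says that replicates came from separate cultures, so p-values measure the spread between these libraries, which may be technical.

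The targeted gene was examined first. BMAL1 encodes a transcription factor of the circadian clock that pairs with CLOCK and binds E-boxes in DNA. It was measured in control libraries at 11.3, 12.2 and 14.6 CPM, and in libraries labelled BMAL1 knockout at 17.9, 19.8 and 19.4 CPM, where CPM are a gene's counts relative to its library's total after TMM scaling. The 3 knockout values all lay above the 3 control values, and the log2 fold change was 0.58 (edgeR adjusted p = 0.0237, standard error 0.114). That adjusted p was 0.105 without control replicate 1, 0.129 without control replicate 2, 0.0817 without knockout replicate 2 and 0.0598 without knockout replicate 3. BMAL1 mRNA therefore went against the label, but a count over the whole gene cannot show a small insertion or deletion at the site of the sgRNA, and mRNA does not give the level of the protein. By the protocol, picked clones were checked for BMAL1 protein by western blot, which these data do not hold. The groups are named here by their labels only.

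Cholesterol is built from acetyl-CoA by way of acetoacetyl-CoA, mevalonate and the isoprenoid farnesyl diphosphate, a pair of which is joined to squalene and closed into the sterol ring. Fatty acids are built from the same acetyl-CoA by acetyl-CoA carboxylase and fatty acid synthase, and are then elongated, desaturated and activated with coenzyme A. When sterol in the endoplasmic reticulum is low, the escort protein SCAP carries the SREBP precursors to the Golgi, where they are cleaved into transcription factors for both pathways, and INSIG proteins hold them back when sterol is high.

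All 33 members passed the filter on low counts, as did 14860 of the 22354 loci. At an adjusted p under 0.05 by edgeR, 1 of 33 members, HMGCS1, was called higher in the libraries labelled BMAL1 knockout, beside 1.01% of all loci tested. Called lower were 0 of 33, beside 1.36% of all loci. DESeq2 called 5 members higher and 0 lower, where it called 310 and 387 of all loci, and limma-voom 1 higher and 0 lower, where it called 102 and 153. At an unadjusted p under 0.05, edgeR gave 8 members higher and 2 lower, where 9.10% and 7.76% of all loci passed. The 3 knockout values lay entirely above the 3 control values for 10 members and entirely below them for 1, where 11.8% and 11.5% of all loci did so. With the GC trend of each library removed, these became 8 and 3 members, beside 12.4% and 18.7% of all loci. The median log2 fold change was 0.05 over the members and 0.01 over all loci tested, and that of the members was 0.111 without knockout replicate 1 and 0.009 without knockout replicate 3. Member folds ran from 0.816 to 1.34, so each difference was small beside a doubling.

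The members were also counted by role. Of 18 sterol enzymes, 14 had a log2 fold change above 0, with a median of 0.12, while the 10 fatty acid and glycerolipid enzymes were split 5 to 5 around a median of 0.01. Without knockout replicate 1 the latter were split 7 to 3 around a median of 0.06, and without knockout replicate 3 their median was -0.038. With the GC trend removed and knockout replicate 1 left out, a setting chosen after the data were seen, the medians of the 2 groups were 0.096 and 0.043. This division by role was made after the values were seen, and the difference between the medians was not tested.

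**Figure D1:**
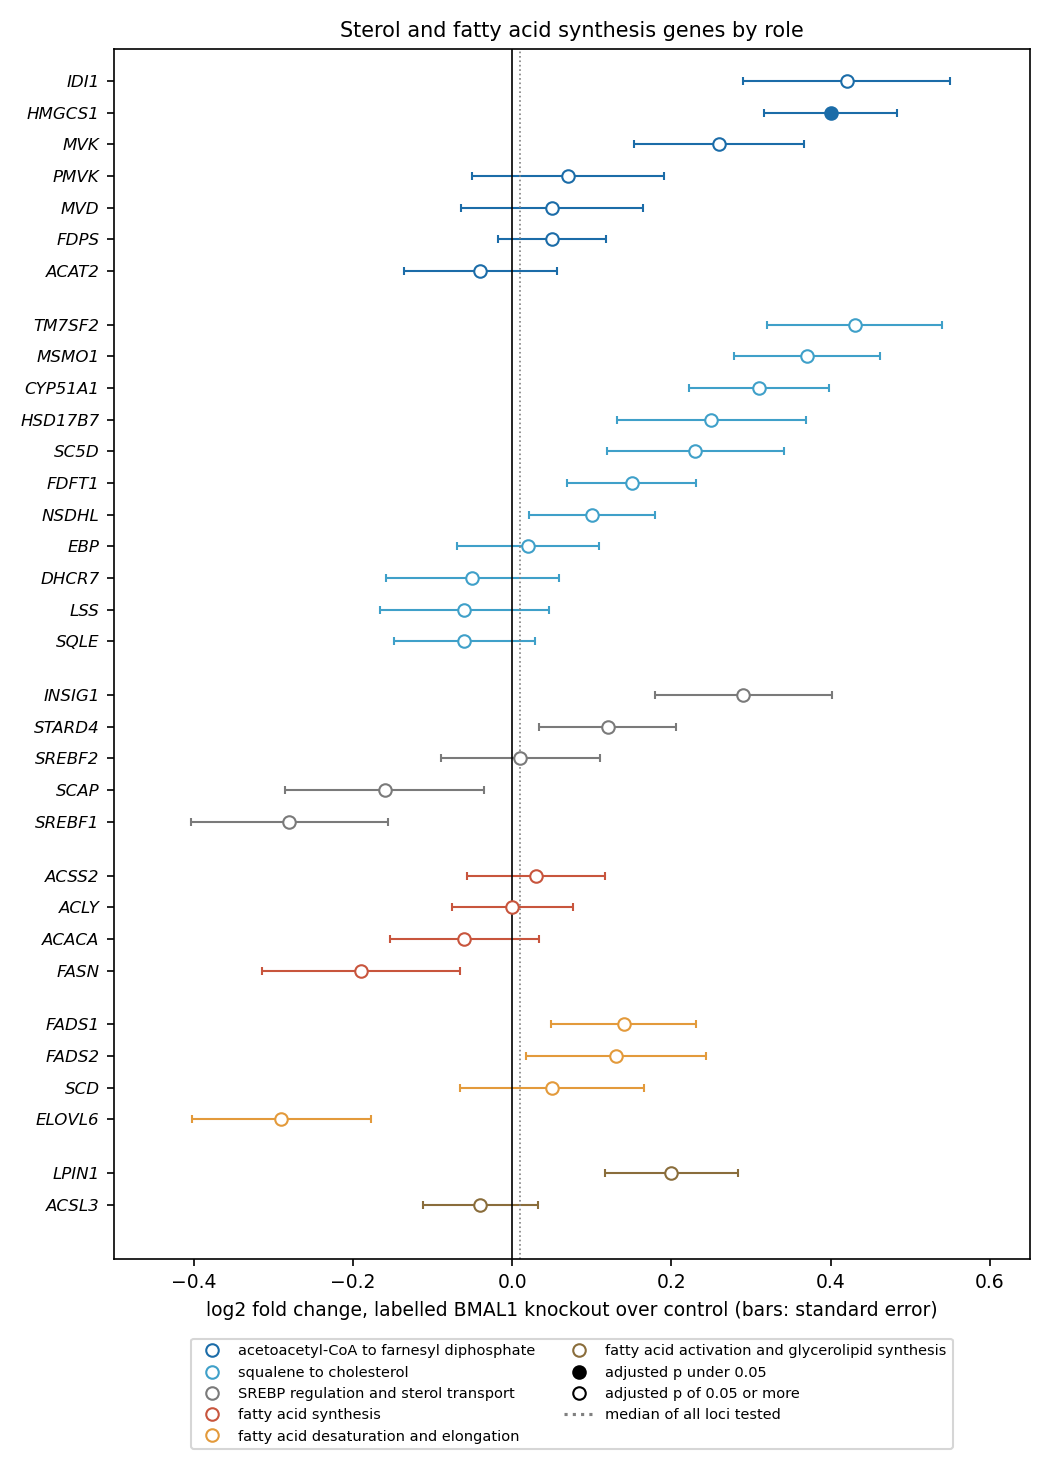
Log2 fold change of each of the 33 members, libraries labelled BMAL1 knockout over control libraries, with bars for the standard error (n = 3 libraries a group), grouped by role. HMGCS1 has the only filled point (adjusted p under 0.05), IDI1 and TM7SF2 reach 0.42 and 0.43, and ELOVL6 and SREBF1 lie lowest at -0.29 and -0.28.

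Knockout replicate 1 stood apart from the other 2 knockout libraries before any comparison was made. Per locus, the squared difference of a pair of libraries was divided by what counting alone gives. This was 5.36 between control replicates 1 and 2, and 14.5 and 13.2 between control replicate 3 and those. It was 7.24 between knockout replicates 2 and 3, and 31.6 and 46.5 between knockout replicate 1 and those others. The multiple rises with read number, so pairs of unlike totals cannot be compared by it. Knockout replicates 1 and 3 had like totals, and against knockout replicate 2 they gave 31.6 and 7.24. Among the members, 20 were lower in knockout replicate 1 than in both other knockout libraries and 9 were higher, and 13 members had their lowest value of all 6 libraries there. The members that were low there tended to have exons rich in G and C. Exon GC content ran from 34.6% (STARD4) to 65.2% (FASN), and its Pearson correlation across the 33 members with the log2 ratio of knockout replicate 1 to the mean of the other 2 knockout libraries was -0.62. That ratio was -0.50 for FASN, -0.46 for SCAP and -0.41 for FADS2, against 0.41 for IDI1, 0.35 for ELOVL6 and 0.24 for SC5D. A GC trend was not particular to that library. Across 12475 loci, exon GC content correlated with a library's deviation from the mean of all libraries at 0.27, 0.25 and -0.33 in control replicates 1 to 3 and at -0.42, 0.16 and 0.20 in knockout replicates 1 to 3. Across the 33 members these values were 0.68, 0.53 and -0.54, and -0.63, -0.03 and 0.26. Genes are not independent replicates, and these correlations are given as a description. With the GC trend removed, the groups of FDPS, NSDHL and HSD17B7 came to overlap, and those of SC5D, SREBF1 and FASN ceased to.

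**Figure D2:**
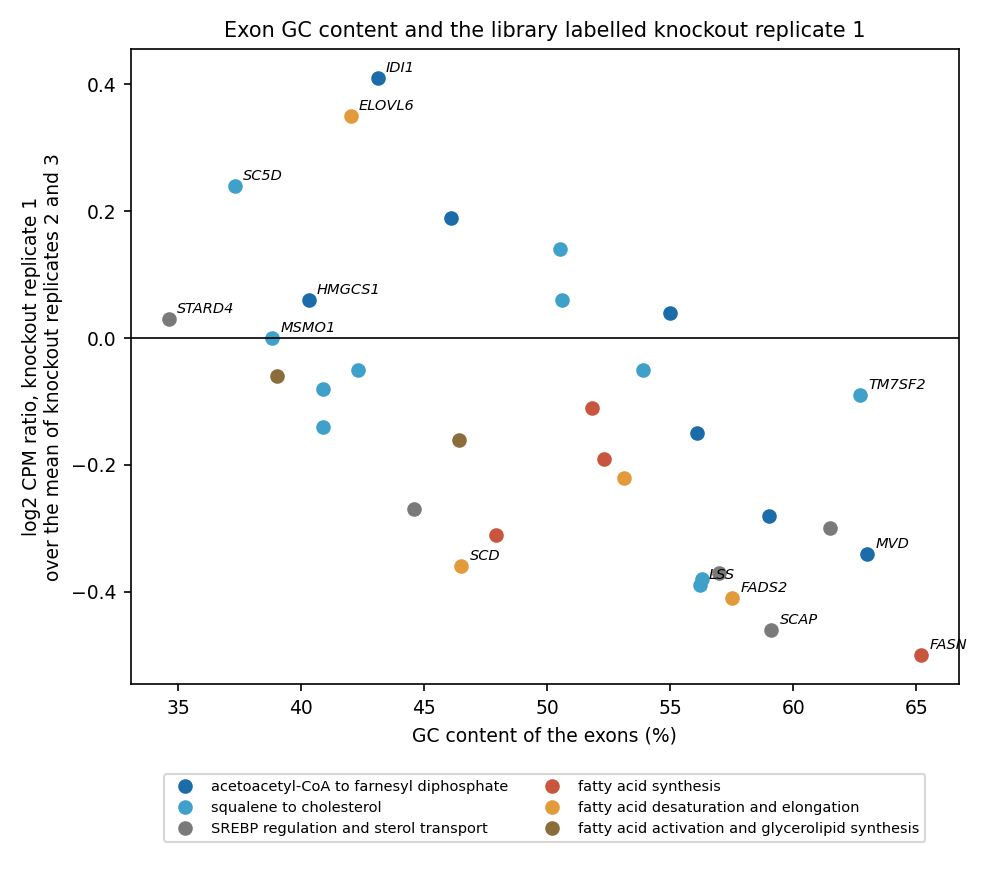
GC content of each member's exons in percent (horizontal) against the log2 ratio of its CPM in knockout replicate 1 to the mean of knockout replicates 2 and 3 (vertical), 1 point per member, coloured by role. IDI1, ELOVL6 and SC5D lie highest at 0.41, 0.35 and 0.24, and FASN, with 65.2% GC, lies lowest at -0.50.

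The first 7 members carry acetoacetyl-CoA to farnesyl diphosphate, and HMGCS1 was the one that passed the test. HMGCS1 is the cytosolic synthase that condenses acetyl-CoA with acetoacetyl-CoA to HMG-CoA. It was measured at 104, 103 and 122 CPM in control libraries and 148, 139 and 146 CPM in libraries labelled BMAL1 knockout. Its knockout values were close together and all lay above the highest control value, which was that of control replicate 3. The log2 fold change was 0.40 (standard error 0.0834, edgeR adjusted p = 0.0315), from a mean of 110 ± 10.5 to 144 ± 4.87 CPM (SD, n = 3). The call was lost in 4 of the 6 fits that left out a library, although the direction was kept in all. The edgeR adjusted p was 0.143 without control replicate 1, 0.181 without control replicate 2, 0.0746 without knockout replicate 2 and 0.0748 without knockout replicate 3, and the log2 fold change stayed between 0.35 and 0.48. Removal of the GC trend gave 0.34 with an adjusted p of 0.00802. With a replicate block the call was also lost (edgeR adjusted p = 0.0623), at a log2 fold change of 0.40. With the GC trend removed and the block, the adjusted p was 0.0141. In hg38, HMGCS1 (ENSG00000112972.15) spans bases 43287470 to 43313512 of chromosome 5, reverse strand. Exons of another locus on the opposite strand overlap 37.7% of its exon length, and since the use of strand in counting is not stated, reads of the overlapping locus cannot be told apart.

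A promoter of HMGCS1 is shown because the gene passed the test. Promoter windows of 300 bases, from 250 before to 50 after a transcription start, were taken from RefSeq (GRCh38.p14). Of the 33 members, 29 had at least 1 window and together had 41, while ACAT2, FASN, SQLE and FDFT1 had none. Each window was searched on both strands for TCACNCCAC, a form of the sterol regulatory element bound by SREBP, for CCAAT, bound by NF-Y, for GGGCGG, bound by Sp1, and for CACGTG, the E-box. NF-Y and Sp1 are known to act together with SREBP at sterol genes. The capitals in the sequence mark matches to any of these on either strand, written 5′ to 3′ on the strand of the gene.
HMGCS1 promoter (chr5:43313363-43313662, reverse strand): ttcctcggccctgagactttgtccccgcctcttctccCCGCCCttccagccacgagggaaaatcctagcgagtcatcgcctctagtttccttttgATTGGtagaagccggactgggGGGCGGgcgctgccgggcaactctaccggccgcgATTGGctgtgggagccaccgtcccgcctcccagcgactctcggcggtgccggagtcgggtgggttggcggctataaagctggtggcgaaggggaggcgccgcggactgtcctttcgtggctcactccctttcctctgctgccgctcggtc
This window held 2 matches to CCAAT, at positions -155 and -100 from the start, and 2 to GGGCGG, at -213 and -134, and none to the other pair of motifs. It is 1 of 2 windows of HMGCS1 and was chosen for its larger number of matches, and the other, chr5:43313132-43313431, held 2 matches to GGGCGG and no match to CCAAT. The letters CCAAT were found in 63.4% of the 41 member windows and in 34.6% of all 35116 windows of the table, and GGGCGG in 87.8% and 45.0%. CACGTG was found in 12.2% of the member windows and 7.26% of all windows. TCACNCCAC was found in 1 member window, that of SREBF2, and in 1.13% of all windows. All windows belong to 27305 genes, which were not limited to the 14860 loci that passed the low-count filter, while every member passed it. The shares among expressed genes were not counted, so an excess over all windows cannot be read as particular to the members. Several windows of 1 gene can overlap, and a match of letters is a description, not a binding site.

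None of the other 6 members of this stretch passed the test. IDI1, the isomerase that turns isopentenyl diphosphate into its reactive isomer, was measured in control libraries at 143, 146 and 188 CPM, and in libraries labelled BMAL1 knockout at 255, 191 and 193 CPM. The groups did not overlap, but control replicate 3 came within a few CPM of knockout replicates 2 and 3, and knockout replicate 1 was far above all others. Its log2 fold change of 0.42 (standard error 0.130, edgeR adjusted p = 0.124) did not pass, and it was 0.27 without knockout replicate 1 and 0.56 without control replicate 3. DESeq2 gave IDI1 an adjusted p of 0.0316. ACAT2, which makes acetoacetyl-CoA, was measured at 93.9, 90.9 and 112 CPM in control libraries and 105, 89.5 and 94.6 CPM in libraries labelled BMAL1 knockout. Its values overlapped throughout, with the highest in a control library and the lowest in a knockout library (log2 fold change -0.04, standard error 0.0960). TCP1 and SOD2, on the opposite strand, are among the genes whose exons cover 22.2% of those of ACAT2. The mevalonate kinase MVK was low in all libraries, at 12.5 ± 0.585 CPM in control and 14.9 ± 1.23 CPM (SD, n = 3) in knockout libraries, without overlap and with a log2 fold change of 0.26 (edgeR adjusted p = 0.249). The later kinase PMVK, the decarboxylase MVD and the farnesyl diphosphate synthase FDPS had log2 fold changes of 0.07, 0.05 and 0.05, each within its standard error. FDPS had the smallest standard error of all members, with values of 136, 135 and 135 CPM against 143, 140 and 138 CPM, so that its groups did not overlap although the difference was 1.03-fold.

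**Figure D3:**
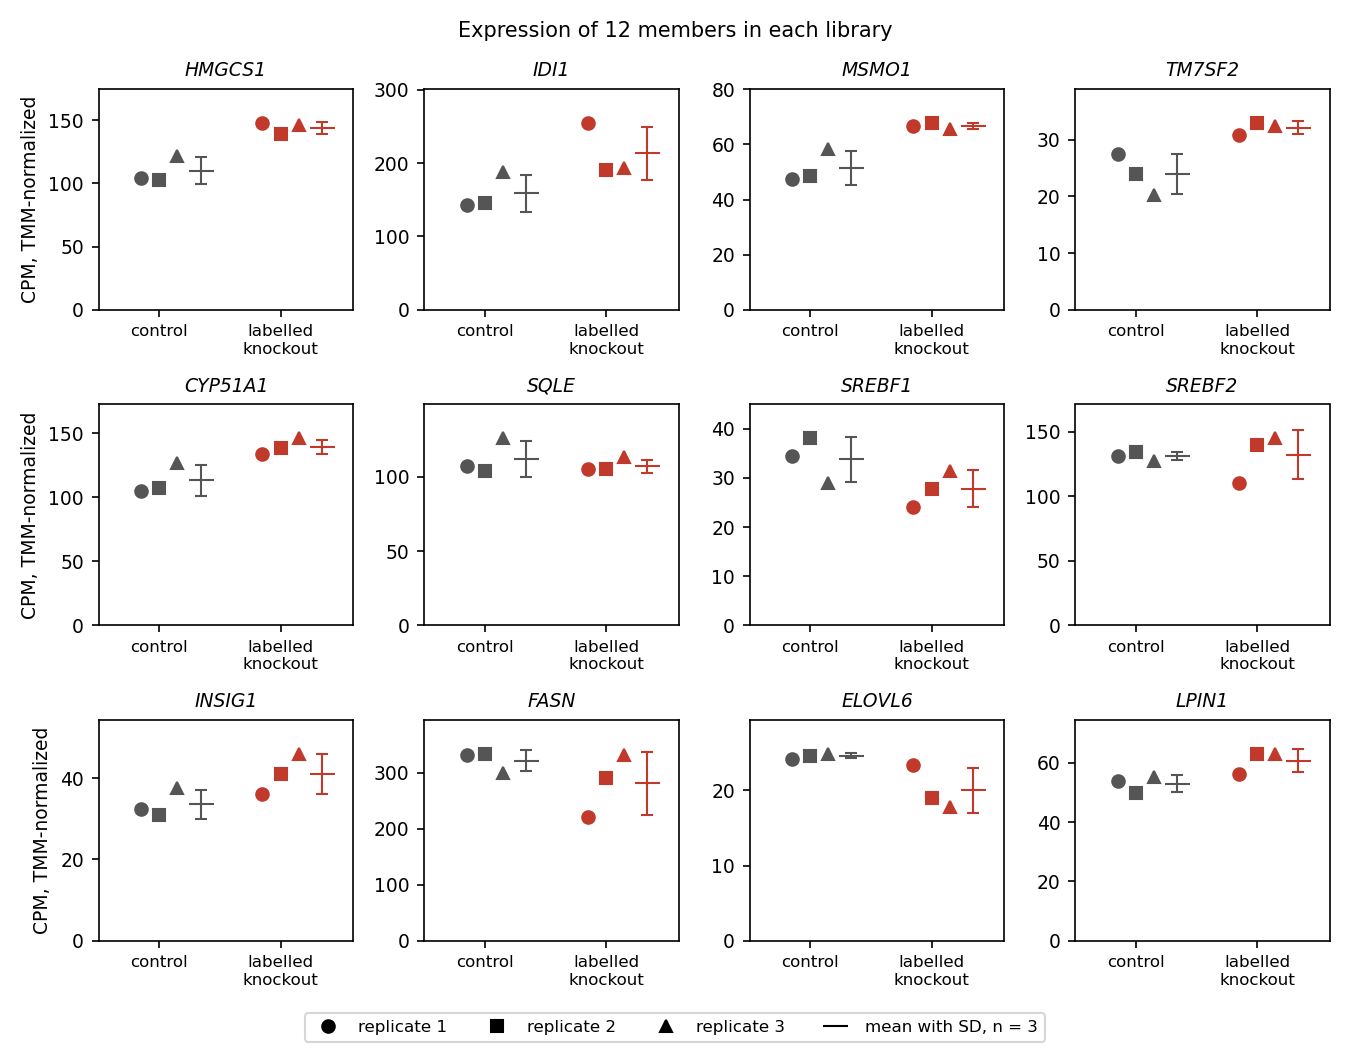
CPM of 12 members in each library (vertical axes from 0), with replicates as circles, squares and triangles and the mean with its SD (n = 3) at the right of each group. HMGCS1, MSMO1 and TM7SF2 have all knockout values above all control values, while FASN and SREBF2 have their lowest value in knockout replicate 1 and overlap with control.

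Of the 11 members between squalene and cholesterol, none passed the test, 8 had a log2 fold change above 0, beside 52.3% of all loci, and 5 had groups without overlap, all 5 higher in the libraries labelled BMAL1 knockout, beside 11.8% of all loci. TM7SF2, a sterol reductase that removes a double bond of the ring, had the largest log2 fold change of all members. It was measured in control libraries at 27.4, 24.0 and 20.3 CPM, and in libraries labelled BMAL1 knockout at 30.9, 33 and 32.5 CPM. All knockout values were higher, and the spread was mainly in the control libraries. From a mean of 23.9 ± 3.56 to 32.1 ± 1.14 CPM (SD, n = 3), the log2 fold change was 0.43 (edgeR adjusted p = 0.0678), and the adjusted p was under 0.05 in 5 of 18 alternatives. It was 0.0444 without knockout replicate 1, 0.0120 with the GC trend removed and 0.214 without control replicate 2, the highest, with 0.00990 the lowest. SQLE, the epoxidase that commits squalene to sterols, had the lowest log2 fold change of the 11. Its level was measured at 107, 104 and 126 CPM in control libraries and 105, 105 and 113 CPM in libraries labelled BMAL1 knockout. These values overlapped (log2 fold change -0.06, standard error 0.0883, edgeR adjusted p = 0.775), with control replicate 3 above the rest.

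MSMO1 and CYP51A1 were singled out after their values were seen, because they came closest to the threshold among the remaining enzymes. Both act on the methyl groups of the young sterol ring, CYP51A1 as a demethylase and MSMO1 as an oxidase. MSMO1 was measured in control libraries at 47.3, 48.7 and 58.4 CPM, and in libraries labelled BMAL1 knockout at 66.7, 67.9 and 65.6 CPM. Its knockout values were nearly equal and all higher (log2 fold change 0.37, standard error 0.0919, edgeR adjusted p = 0.0581). The adjusted p of MSMO1 was under 0.05 in 8 of 18 alternatives, among them 0.0479 without knockout replicate 1 and 0.0250 with the GC trend removed, and ran from 0.00242 to 0.249 over all of them. CYP51A1 was measured at 105, 107 and 127 CPM in control libraries and 134, 138 and 146 CPM in libraries labelled BMAL1 knockout. The groups did not overlap, although control replicate 3 was near the lowest knockout value (log2 fold change 0.31, standard error 0.0876, edgeR adjusted p = 0.0972). The adjusted p of CYP51A1 was under 0.05 in 3 of 18 alternatives, DESeq2 among them (0.0371), and ran from 0.00363 to 0.348. Other loci, AKAP9 among them, cover 74.1% of the exon length of CYP51A1, so that its counts may hold reads of these loci.

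The remaining 7 enzymes of this stretch had smaller differences. HSD17B7, the ketoreductase of the demethylation complex, and NSDHL, its decarboxylating dehydrogenase, had log2 fold changes of 0.25 and 0.10, with groups that did not overlap. SC5D, the desaturase late in the pathway, and FDFT1, the squalene synthase, had 0.23 and 0.15 with overlapping groups. EBP, the sterol isomerase, LSS, which closes the ring, and DHCR7, the last reductase, had 0.02, -0.06 and -0.05. LSS and DHCR7 both had their lowest value in knockout replicate 1, and without that library their log2 fold changes were 0.06 and 0.07. The edgeR adjusted p of these 7 enzymes ran from 0.310 for HSD17B7 to 0.927 for EBP.

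The promoters of MSMO1 and TM7SF2 are shown because their adjusted p came next after that of HMGCS1.
MSMO1 promoter (chr4:165327419-165327718, forward strand): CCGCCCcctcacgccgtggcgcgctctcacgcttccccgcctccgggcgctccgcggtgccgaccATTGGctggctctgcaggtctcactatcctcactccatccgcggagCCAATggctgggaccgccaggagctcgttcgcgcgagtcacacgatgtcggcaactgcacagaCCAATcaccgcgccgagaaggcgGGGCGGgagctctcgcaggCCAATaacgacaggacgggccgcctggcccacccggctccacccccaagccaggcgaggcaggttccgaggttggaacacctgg
TM7SF2 promoter (chr11:65111622-65111921, forward strand): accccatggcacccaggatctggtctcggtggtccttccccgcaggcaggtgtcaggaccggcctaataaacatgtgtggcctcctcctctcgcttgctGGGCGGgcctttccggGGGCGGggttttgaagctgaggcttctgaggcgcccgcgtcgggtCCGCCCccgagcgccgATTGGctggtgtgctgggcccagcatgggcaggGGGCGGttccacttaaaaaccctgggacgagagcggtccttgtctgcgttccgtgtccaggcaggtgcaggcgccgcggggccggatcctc
The capitals mark the same motifs as in the HMGCS1 promoter. The MSMO1 window held 4 matches to CCAAT, at -185, -139, -76 and -34, and 2 to GGGCGG, at -250 and -53. The TM7SF2 window held 1 match to CCAAT, at -74, and 4 to GGGCGG, at -151, -135, -90 and -41. MSMO1 (ENSG00000052802.13) spans bases 165327667 to 165343164 of chromosome 4 in hg38 and TM7SF2 (ENSG00000149809.17) bases 65111845 to 65116384 of chromosome 11, both forward. Among the 29 members with a window, the median log2 fold change was 0.08 for the 22 with CCAAT and 0.07 for the 7 without it. The former ran from -0.06 to 0.43 and the latter from -0.29 to 0.31, with ELOVL6, SREBF1 and SCAP the lowest, and the difference was not tested.

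The 5 members that regulate the pathway or move sterol moved neither together nor past the test. SREBF2 encodes the SREBP that acts mainly on cholesterol genes. Its level was measured in control libraries at 131, 134 and 127 CPM, and in libraries labelled BMAL1 knockout at 110, 140 and 145 CPM. Knockout replicate 1 was below all controls and the other 2 knockout libraries were above them, so the log2 fold change of 0.01 (edgeR adjusted p = 0.974) averages over a split. SREBF1 encodes the SREBP that acts mainly on fatty acid genes. Its level was measured at 34.5, 38.1 and 28.9 CPM in control libraries and 24.0, 27.8 and 31.5 CPM in libraries labelled BMAL1 knockout. The groups overlapped through control replicate 3 and knockout replicate 3, and the log2 fold change was -0.28 (standard error 0.124, edgeR adjusted p = 0.275). With the GC trend removed, its groups no longer overlapped and its log2 fold change was -0.29 (edgeR adjusted p = 0.0508).

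SCAP, the escort of SREBP, was measured in control libraries at 58.5, 64.5 and 55.1 CPM, and in libraries labelled BMAL1 knockout at 42.4, 54.2 and 62.2 CPM. The log2 fold change of -0.16 (standard error 0.125, edgeR adjusted p = 0.549) was -0.03 without knockout replicate 1, the lowest of the 6, -0.10 without control replicate 2 and -0.30 without knockout replicate 3. INSIG1, the retention protein that is itself a known target of SREBP, was measured at 32.3, 30.8 and 37.6 CPM in control libraries and 36.1, 40.9 and 46.0 CPM in libraries labelled BMAL1 knockout. Control replicate 3 lay above knockout replicate 1, so the groups overlapped, and the log2 fold change was 0.29 (standard error 0.111, edgeR adjusted p = 0.208). Without knockout replicate 1 it was 0.37 with an adjusted p of 0.0603. STARD4, a carrier of cholesterol between membranes, was measured in control libraries at 49.3, 49.4 and 57.8 CPM, and in libraries labelled BMAL1 knockout at 57.7, 56.7 and 56.2 CPM. Control replicate 3 matched the knockout libraries (log2 fold change 0.12, standard error 0.0862, edgeR adjusted p = 0.505). The log2 fold change was 0.21 without that library, 0.08 without control replicate 1 and 0.06 with the GC trend removed.

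The promoter of INSIG1 is shown because it was 1 of 4 member promoters, with those of LSS, SC5D and SCAP, that held the E-box letters. The log2 fold changes of these 4 genes had no common sign, at 0.29, -0.06, 0.23 and -0.16.
INSIG1 promoter (chr7:155297628-155297927, forward strand): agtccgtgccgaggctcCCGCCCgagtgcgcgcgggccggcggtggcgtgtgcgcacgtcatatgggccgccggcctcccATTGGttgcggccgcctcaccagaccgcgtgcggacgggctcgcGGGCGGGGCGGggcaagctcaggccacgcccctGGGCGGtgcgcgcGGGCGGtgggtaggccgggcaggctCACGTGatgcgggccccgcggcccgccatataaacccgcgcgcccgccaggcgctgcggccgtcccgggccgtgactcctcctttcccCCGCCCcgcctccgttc
Its CACGTG stood at -55, its CCAAT match at -170, and its 6 GGGCGG matches between -233 and 34, with those at -126 and -121 sharing a base. In hg38, INSIG1 (ENSG00000186480.13) spans bases 155297776 to 155310235 of chromosome 7, forward strand.

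**Figure D4:**
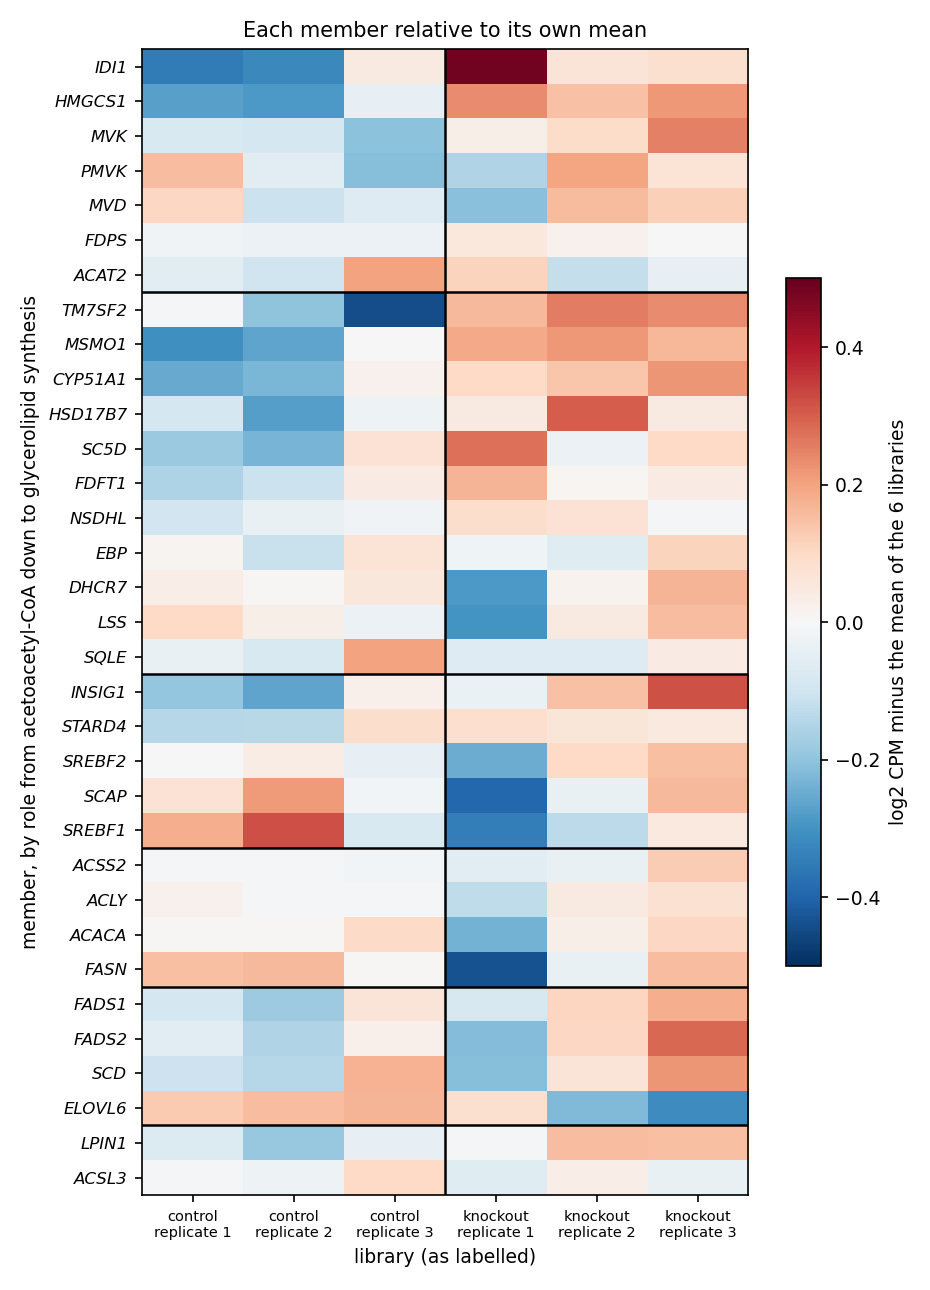
Each member's log2 CPM minus its own mean over the 6 libraries (red above, blue below), with members in rows by role from acetoacetyl-CoA to glycerolipid synthesis and libraries in columns. IDI1, HMGCS1, TM7SF2, MSMO1 and CYP51A1 are redder in the knockout columns, and FASN, SCAP, LSS and DHCR7 are blue in knockout replicate 1.

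The 4 enzymes of fatty acid synthesis had no member past the test. FASN, the synthase that makes palmitate, was measured at 331, 334 and 300 CPM in control libraries and 221, 291 and 332 CPM in libraries labelled BMAL1 knockout. Its knockout values spread more widely than any difference between the groups, from far below all controls to within them. The log2 fold change was -0.19 (standard error 0.124, edgeR adjusted p = 0.468), -0.05 without knockout replicate 1 and -0.33 without knockout replicate 3. Once the GC trend was removed, the values of FASN were 316, 315 and 341 CPM against 242, 274 and 314 CPM, all lower in the libraries labelled BMAL1 knockout, and its log2 fold change was -0.23 (edgeR adjusted p = 0.134). ACSS2, which activates acetate, had the highest log2 fold change of the 4. Its level was measured in control libraries at 32.8, 32.8 and 32.7 CPM, and in libraries labelled BMAL1 knockout at 31.7, 32.2 and 36.0 CPM, a log2 fold change of 0.03 (standard error 0.0865). The controls were almost identical and lay inside the range of the knockout values. ACLY, which releases acetyl-CoA from citrate, and ACACA, the carboxylase, had log2 fold changes of 0.00 and -0.06 (standard errors 0.0761 and 0.0933).

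Of the 4 enzymes of desaturation and elongation, ELOVL6 stood apart from the other 3. ELOVL6, which elongates palmitate to stearate, was measured at 24.2, 24.6 and 24.9 CPM in control libraries and 23.4, 19.0 and 17.8 CPM in libraries labelled BMAL1 knockout. It was the 1 member with all knockout values below all controls, and knockout replicate 1 lay closest to the controls. The log2 fold change was -0.29 (standard error 0.112, edgeR adjusted p = 0.205). Without knockout replicate 1 it was -0.42 with an adjusted p of 0.0242, and with the GC trend removed it was -0.34 with an adjusted p of 0.0365, over a range of 0.00458 to 0.441 in 18 alternatives. FADS1, a desaturase of polyunsaturated fatty acids, was measured in control libraries at 180, 169 and 200 CPM, and in libraries labelled BMAL1 knockout at 181, 206 and 217 CPM. The groups overlapped (log2 fold change 0.14, standard error 0.0908, edgeR adjusted p = 0.473), and the log2 fold change was 0.08 without control replicate 2 or knockout replicate 3 and 0.21 without control replicate 3 or knockout replicate 1. Its neighbour FADS2, the other desaturase of that pathway, had 0.13, and SCD, which makes oleate from stearate, had 0.05 (edgeR adjusted p = 0.611 and 0.857). That of FADS2 was 0.25 without knockout replicate 1 and 0.01 without knockout replicate 3. FADS1 and FADS2 overlap each other on opposite strands. Other genes cover 5.6% of the exon length of FADS1 (FADS2 and MIR1908) and 5.1% of that of FADS2 (FADS1 and FEN1).

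The promoter of ELOVL6 is shown as that of the member with the lowest log2 fold change.
ELOVL6 promoter (chr4:110198566-110198865, reverse strand): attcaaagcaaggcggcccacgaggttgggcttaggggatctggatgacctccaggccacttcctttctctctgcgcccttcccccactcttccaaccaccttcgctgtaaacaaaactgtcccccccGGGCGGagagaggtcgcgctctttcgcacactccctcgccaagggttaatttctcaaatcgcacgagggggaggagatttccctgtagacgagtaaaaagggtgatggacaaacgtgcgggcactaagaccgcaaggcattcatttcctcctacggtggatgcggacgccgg
It held 1 match to GGGCGG, at -122, and none to CCAAT or the other motifs. In hg38, ELOVL6 (ENSG00000170522.10) spans bases 110045846 to 110199199 of chromosome 4, reverse strand.

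LPIN1 and ACSL3 complete the list. LPIN1, the phosphatidate phosphatase that makes diacylglycerol, was measured at 54.0, 49.7 and 55.1 CPM in control libraries and 56.2, 63.1 and 62.9 CPM in libraries labelled BMAL1 knockout. The groups did not overlap, by a margin of about 1 CPM between control replicate 3 and knockout replicate 1 (log2 fold change 0.20, standard error 0.0841, edgeR adjusted p = 0.260). ACSL3, which activates long-chain fatty acids, was measured in control libraries at 200, 198 and 216 CPM, and in libraries labelled BMAL1 knockout at 193, 206 and 196 CPM. Its values overlapped (log2 fold change -0.04, standard error 0.0727).

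The levels of each role were also summed by library. The 18 sterol enzymes together took 1210, 1200 and 1350 CPM in the libraries labelled control and 1440, 1380 and 1420 CPM in those labelled BMAL1 knockout. Every knockout sum was above every control sum, and control replicate 3 was the nearest to them. The 10 fatty acid and glycerolipid enzymes took 1640, 1610 and 1690 CPM in the libraries labelled control and 1440, 1680 and 1780 CPM in those labelled BMAL1 knockout, with knockout replicate 1 the lowest of all 6 and knockout replicate 3 the highest. Among the sterol enzymes, 6 of 18 had an unadjusted p under 0.05, all higher, where 9.10% of all loci were higher by that measure, and 9 of 18 had groups that did not overlap, all higher, where 11.8% of all loci were higher without overlap. Among the 10 others these numbers were 1 higher and 1 lower by either measure, for LPIN1 and ELOVL6. After removal of the GC trend, 7 of the sterol enzymes were higher and 0 lower without overlap, and of the 10 others 1 was higher and 2 were lower, FASN having joined ELOVL6, where 12.4% of all loci were higher and 18.7% lower. The difference between the roles was not tested. In bulk RNA, fewer cells of a kind and less RNA per cell cannot be told apart.

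**Figure D5:**
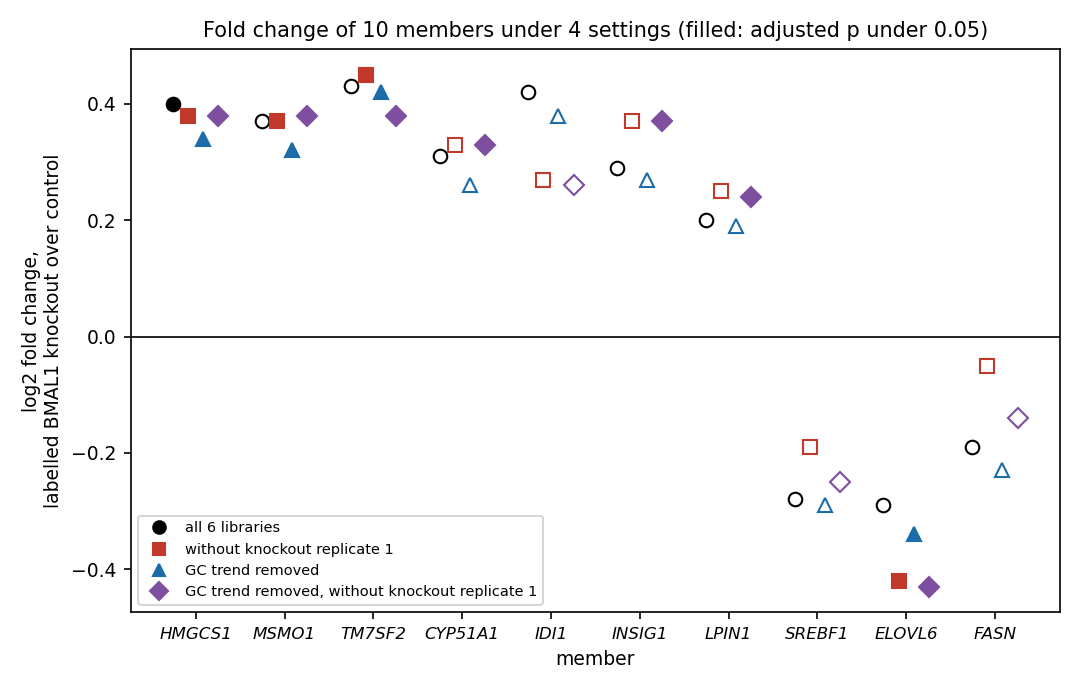
Log2 fold change of 10 members (libraries labelled BMAL1 knockout over control) with all libraries, without knockout replicate 1, with each library's GC trend removed, and with both, with filled points where the adjusted p was under 0.05. HMGCS1 is filled in all 4 settings and MSMO1, TM7SF2 and ELOVL6 in the 3 others, while IDI1 drops from 0.42 to 0.27 without knockout replicate 1.

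Levels of different genes can be compared only per length. Over all 6 libraries, ACLY had the highest level at 74.9 CPM per kb of exon, followed by IDI1 at 43.3, SCD at 40.9, FDPS at 37.1 and ACAT2 at 37.0. MVK was the lowest at 1.52 CPM per kb, below HSD17B7 at 2.58, SC5D at 2.95 and ELOVL6 at 3.07. The length was that of all annotated exons of a gene together, not of the transcript expressed. It was 9018 bases for MVK, 4784 for HSD17B7 and 1002 for PMVK, so the order depends on the annotation. In CPM, MVK was above HSD17B7, at means of 12.5 against 11.2 in control and 14.9 against 13.4 in knockout libraries. The 2 SREBP genes were unlike, SREBF2 at 16.3 and SREBF1 at 3.74 CPM per kb. Reads were sufficient for each member, from 271 for HSD17B7 in its lowest library to 18217 for ACLY in its highest. GENCODE v44 lists pseudogenes named after FDPS, CYP51A1, IDI1, HSD17B7 and SCD, and reads that fit both a gene and its copy are lost from a count of uniquely mapped reads.

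The members lie on 17 chromosomes. For each member the median log2 fold change of the 20 nearest loci tested on each side was taken. It was 0.00 for HMGCS1, -0.07 for TM7SF2 and 0.08 for MSMO1, beside their own values of 0.40, 0.43 and 0.37. It was 0.16 for LPIN1 on chromosome 2 and 0.12 for STARD4 on chromosome 5, beside their own values of 0.20 and 0.12. It was 0.14 for CYP51A1 on chromosome 7 and 0.13 for SCD on chromosome 10, beside 0.31 and 0.05, and lowest, at -0.18, for LSS on chromosome 21, where 26 neighbours were found, beside -0.06. Next lowest were ACAT2 at -0.15 and SQLE at -0.13, beside -0.04 and -0.06. Fewer neighbours than the full 40 were also found for IDI1 (24), INSIG1 (30) and FASN (36). The spread of the neighbours was not examined, and a regional part in these values was not tested. Exons of 19 members overlapped those of another gene on either strand, and the median log2 fold change of the 14 without such an overlap was 0.05, as over all members.

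Genes outside the list that belong to the same pathways were counted from 8 further lists. The 7 electron donors and other proteins of sterol synthesis had 0 genes called in either direction by edgeR and a median log2 fold change of 0.07. The 11 genes of SREBP processing and sterol-regulated degradation had 0 called, but 10 of 11 had a log2 fold change below 0, where 7087 of 14860 loci did. Their median was -0.11, and 5 genes had knockout values that were all lower, where 11.5% of all loci were lower without overlap. Among those 5, UBE2G2 had -0.20 beside a neighbour median of -0.18, and the neighbour medians of the others ran from -0.05 to 0.05. A regional part was not tested. INSIG2 alone went the other way, with the change of largest size in this list and overlapping groups (log2 fold change 0.31, edgeR adjusted p = 0.285). Of the 11, RNF145, a ubiquitin ligase that responds to sterols, had the smallest p. Its level was measured at 134, 124 and 140 CPM in control libraries and 103, 114 and 114 CPM in libraries labelled BMAL1 knockout (log2 fold change -0.27, standard error 0.0804, edgeR adjusted p = 0.109), and the gene was picked after its values were seen. In the glycerolipid and oxidation lists below, AGPAT3 and ACADVL had smaller p (log2 fold change -0.30 and -0.29, edgeR adjusted p = 0.0801 and 0.0837). The 11 genes of the isoprenoid branch, which leads from farnesyl diphosphate to prenylated proteins, dolichol and ubiquinone, had 0 called and a median of -0.01. The 7 LXR receptors and targets, the arm that responds to excess sterol, had 0 called and a median of -0.09, and of 10 genes of sterol transport and storage, 9 were tested, 0 were called and the median was 0.04.

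On the fatty acid side, 20 of 21 further genes of synthesis, elongation and activation were tested, 0 were called and the median log2 fold change was 0.04. Among 13 genes of glycerolipid synthesis and lipid droplets, 1 was called lower and 0 higher, beside 1.36% and 1.01% of all loci, with a median of -0.07. The gene called was GPAT3, the acyltransferase that starts glycerolipid synthesis from glycerol phosphate. Its level was measured in control libraries at 14.6, 12.6 and 12.9 CPM, and in libraries labelled BMAL1 knockout at 9.21, 7.08 and 7.85 CPM. All 3 knockout values were lower, and the log2 fold change was -0.72 (standard error 0.126, edgeR adjusted p = 0.0134), larger in size than that of any of the 33 members. The 14 genes of mitochondrial fatty acid oxidation had 0 called, with a median of 0.11 and 5 genes higher and 2 lower without overlap, where 11.8% and 11.5% of all loci were. Among those 5, HADHA and HADHB, both on chromosome 2, had 0.22 and 0.30 beside a neighbour median of 0.19 for each. The neighbour medians of SLC25A20, ACAA2 and ECI1 were -0.02, -0.03 and -0.04. A regional part in these values was not tested. Over these 8 lists, unadjusted p-values under 0.05 were reached by 7 of 92 genes tested in the higher and 7 in the lower direction, where 9.10% and 7.76% of all loci reached them.

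The labelled cell type was set against marker genes. Among markers of thyroid follicular cells, PAX8 was measured at 133 ± 15.4 CPM in control and 110 ± 19.1 CPM (SD, n = 3) in knockout libraries, with overlap (log2 fold change -0.28, edgeR adjusted p = 0.263). FOXE1 was measured at 48.0 ± 0.717 and 40.0 ± 3.29 CPM (SD, n = 3), with all knockout values lower (log2 fold change -0.26, edgeR adjusted p = 0.141). NKX2-1 and IYD had no reads in any library, and TG, TSHR and SLC5A5 were under 1 CPM in all, so these 5 markers of differentiated thyroid cells were at or near 0. Of 6 epithelial markers, KRT7, KRT8 and KRT18 were abundant, KRT19 had means of 7.67 and 8.97 CPM, and EPCAM and CDH1 were under 1 CPM in every library. Their sums of 2990, 3040 and 2900 CPM against 2540, 2480 and 2560 CPM rested on those 3 keratins, of which KRT8 and KRT18 had log2 fold changes of -0.28 and -0.50 and KRT7 of 0.10.

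KRT18, picked after its values were seen like PTPRC below, was called lower, at 852 ± 9.45 and 602 ± 44.2 CPM (SD, n = 3) in the 2 groups (edgeR adjusted p = 0.00588), while KRT8 was not (edgeR adjusted p = 0.0517). KRT19 and EPCAM had log2 fold changes of 0.23 and 1.55, both with overlap (edgeR adjusted p = 0.406 and 0.378). That of EPCAM rested on 0, 10 and 0 reads in control and 10, 16 and 17 in knockout libraries. Among 5 leukocyte markers, whose sums were 19.3, 19.9 and 17.9 CPM against 14.2, 12.5 and 13.1 CPM, PTPRC was lower (log2 fold change -1.42, edgeR adjusted p = 0.00107), CD68 was the most abundant, CD14 had a log2 fold change of 0.97 at means of 0.413 and 0.835 CPM (edgeR adjusted p = 0.343), and CD3E was at 0. Of 5 fibroblast markers only COL1A1 was abundant, with sums of 903, 907 and 770 CPM against 700, 913 and 966 CPM, while DCN and LUM were at 0. Adipocyte and endothelial sums were no higher than 2.21 CPM in any library, with ADIPOQ and CIDEC at 0. Of 3 hepatocyte markers, ALB and TTR were under 1 CPM in every library and SERPINA1 had means of 9.61 and 11.2 CPM (n = 3), without overlap (log2 fold change 0.22, edgeR adjusted p = 0.374). A part of cell type or state in the values of the lipid genes was not tested.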

How the data were processed

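The authors deposited 1 table of read counts per gene for 6 RNA-seq libraries, 3 labelled control and 3 labelled BMAL1 knockout. The submitters' processing notes credit fastp 0.20.1 and HISAT2 2.0.4 with the genome build hg38. The annotation and the use of strand are not given in the sources used here. Of 22354 loci, 14860 passed the default low-count filter of edgeR. Library totals were scaled by TMM, and the groups were compared with the quasi-likelihood test of edgeR 4.0.16 in R 4.3.3, with robust estimation and adjustment over all loci tested. The biological coefficient of variation was 0.108. Standard errors of the members' log2 fold changes ran from 0.0680 to 0.130. DESeq2 1.42.0 and limma 3.58.1 (voom) were run beside it, and the main test was tested on simulated data. Positions, exon lengths and exon GC content came from GENCODE v44, and GC content was known for 91.3% of loci tested. The GC trend of each library was removed in an alternative fit. Other alternatives were the scaling, the filter, a replicate block, thinning to the smallest total, and leaving out each library. The members and lists were chosen with earlier results of these data known. By the rule for naming genes, 6 values are given for members called, for the regulators, and for the member with the highest and the lowest log2 fold change in each other role. From each further list the genes called are named.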

Additional observations from a re-analysis of the deposited data

How the results depend on the processing

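Over 21 settings, 128 of 173 values of the counts and medians kept their side of the threshold or their size, as did 535 of 594 values of the members' log2 fold changes under 18 of these settings, and 31 of the latter, in 13 members, changed sign. Where a value below moved, the cause was not tested. Members called higher were 1 as reported, 2 with library size only and with at least 10 counts in every library, 5 with DESeq2, 0 with a replicate block, 3 with the GC trend removed, 4 with the GC trend removed and a replicate block, 4 at an adjusted p under 0.1, 0 at a fold change over 2 with an unadjusted p under 0.01, and 0 without the members whose exons overlap another gene, HMGCS1 being among those left out. Members called lower were 0 as reported and 1 with the GC trend removed, with or without the block. Leaving out each library in turn gave 0 to 3 members higher and 0 to 1 lower. Removing the GC trend and leaving out knockout replicate 1 together, an alternative chosen after seeing the data, gave 6 higher and 1 lower. Genes called higher and lower were 150 and 202 as reported, 310 and 387 with DESeq2, 97 and 119 with the block, 417 and 723 with the GC trend removed, 297 and 536 with that and the block, 695 and 1238 with that and knockout replicate 1 left out, 363 and 388 at an adjusted p under 0.1, 84 and 52 at a fold change over 2, and 39 to 323 and 65 to 360 without each library in turn. The median of the sterol enzymes was 0.123, and 0.119 to 0.164 without each library in turn, against 0.054 with 0.009 to 0.111 for all members and 0.012 with -0.038 to 0.06 for the fatty acid and glycerolipid enzymes.

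Signs changed only for members near 0. Without each library in turn the log2 fold change ran from -0.10 to 0.06 for ACAT2, -0.01 to 0.17 for PMVK, -0.01 to 0.16 for MVD, -0.12 to 0.03 for SQLE, -0.16 to 0.06 for LSS, -0.03 to 0.07 for EBP, -0.16 to 0.07 for DHCR7, -0.07 to 0.12 for SREBF2, -0.04 to 0.06 for ACLY, -0.04 to 0.06 for ACSS2, -0.13 to 0.04 for ACACA, -0.05 to 0.16 for SCD and -0.07 to 0.00 for ACSL3. With the GC trend removed and knockout replicate 1 left out, LSS had 0.02, DHCR7 0.03, ACLY 0.04 and ACACA 0.03. SREBF2 had 0.00 with limma-voom. ACLY had 0.03 with library size only and 0.00 without the low-count filter, with at least 10 counts, and with the GC trend removed, with or without the block.

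Replicate numbers shared by the groups did not mark pairs: same-number correlations were -0.13, 0.03 and -0.04, and only control replicate 2 correlated best with its own number. With the block, HMGCS1 had an adjusted p of 0.0623 by edgeR. The median log2 fold change of all loci was 0.01 with TMM, 0.038 with library size only, 0.008 with median-of-ratios factors and -0.013 with the GC trend removed. The HMGCS1 call ended without control replicate 1 or 2 or knockout replicate 2 or 3, and was kept without control replicate 3 or knockout replicate 1. Counts were the only data, so splicing, protein and lipid levels were not measured.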
